A study of Mus musculus with 11 samples.

Results

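The genes described here encode the proteins of the cytosolic ribosome. They were taken by name, as every gene whose symbol is Rpl or Rps followed by a digit, or Rplp0, Rplp1, Rplp2 or Rpsa, without the Rps6k kinases and without names marked as pseudogenes. The rule gave 67 of the 22180 genes measured, 41 with large-subunit names and 26 with small-subunit names. It used no measured value to choose genes, only to choose 1 probe set for each. Among the 67 are 2 genes that take the naming pattern but are not ribosomal proteins, Rps19bp1, whose product binds Rps19, and Rps23rg1, a retrogene of Rps23. Of 89 protein-coding ribosomal protein names in the RefSeq gene table, 14 were on the array only in probe sets that carry several gene symbols, and 8 were not found under a symbol there.

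RNA was profiled on microarrays from line 720, a mouse model of T-cell acute lymphoblastic leukaemia (T-ALL). This single line came from a Tcf12+/- mouse with a Tal1 transgene under the Lck promoter, so every array carries both alterations. Cells were exposed for 8 h to compounds described in the labels as inhibitors of the Runt domain, through which RUNX transcription factors bind DNA. AI-7-54 was given at 100 µM (n = 3 arrays, replicates 1, 3 and 4), AI-8-45 at 100 µM (n = 4) and AI-9-54 at 50 µM (n = 4). These are code names, and no structure is given for them here. No vehicle-treated array was analysed here, so each value compares a compound with another compound. AI-9-54 differs from the others in dose as well as in compound, and these cannot be told apart. The labels do not say whether replicates were separate cultures, so p-values measure only a spread among arrays that could be technical.

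A ribosome is a large and a small subunit, each built from ribosomal RNA and many proteins that are made in near-equal amounts. Most of their messenger RNAs start with a C followed by a run of pyrimidines, the 5′ terminal oligopyrimidine (TOP) tract, through which the mTOR pathway controls their translation. Free Rpl5 and Rpl11, bound to 5S ribosomal RNA, hold the ubiquitin ligase Mdm2 and thereby stabilise p53. RPL5, RPL10, RPL11 and RPL22 are among the ribosomal protein genes found altered in human T-ALL.

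The array medians lay between 6.61 and 6.68 (deposited values, log2 signal), and all values between 3.23 and 13.8. In a principal component analysis of the 22180 genes, the first component held 36.2% of the variance and followed the compounds. The second held 19.6% and set replicates 1 and 2 apart from replicates 3 and 4, so the values within each of these sets are given below where they matter. Replicates 1 and 2 hold 1 AI-7-54 array, and every other group has 2 arrays in each set. AI-8-45 replicate 3 stood apart on the third component (11.2%). T-lineage markers had array means of 9.96 to 10.40, against 5.73 to 5.95 for B-lineage and 6.15 to 6.23 for myeloid markers. Erythroid markers read 7.95 to 8.29, and stromal and endothelial ones 7.27 to 7.45, both above the array medians. A gene is called below where limma's Benjamini-Hochberg adjusted p over all genes was under 0.05. No gene of the B-lineage (8 measured), myeloid (10), erythroid (4) and stromal and endothelial (9) lists was called in any comparison by limma, and at an unadjusted p under 0.05 the most for any list in any comparison was 2. Of 12 T-lineage markers measured, 1, 6 and 2 were called lower in the 3 comparisons, in the order used below. Of all genes, 3.53%, 7.29% and 0.6% were called lower. The log2 values of these markers summed to 122.8 to 124.8 after AI-7-54, 121.4 to 123.1 after AI-8-45 and 119.5 to 121.0 after AI-9-54. Their part in the differences below was not tested, and in such bulk RNA fewer cells of a type and less RNA per cell cannot be told apart.

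Start-site sequence was read from the RefSeq promoter table (build GRCm38.p6), in which 54 of the 67 genes had at least 1 start. The others were Rpl17, Rpl21, Rpl23a, Rpl29, Rpl3, Rpl30, Rpl32, Rpl7, Rpl8, Rplp1, Rps14, Rps20 and Rps29. A TOP-like tract, here a C that opens a run of at least 5 pyrimidines beginning within 5 bases of an annotated start, was present in 23 of the 54 genes (42.6%) and in 21.2% of the 27025 genes of the table. Of the 11 matched genes called lower in the AI-9-54 against AI-7-54 comparison 3 had it, as did 20 of the 43 matched genes not called. Only annotated starts were read, and the starts used in these cells were not measured. A gene counted as without a tract may therefore still have one. The windows below run from 12 bases before the start through 15 bases from it, with the tract in capitals. They are shown for 3 called genes that hold one, 2 called genes without one, and 2 genes not called that hold one.
Rps27l, chr9:66946074-66946100, plus strand: ctcctccccgccgCCTCTatcccggaa
Rpl34, chr3:130730384-130730410, minus strand: cttccctgacgtaCTTCCTgtccggcg
Rplp2, chr7:141447639-141447665, plus strand: gtcagcgtCTTCCTTTCgccgccggac
Rpl5, chr5:107900516-107900542, plus strand: cacgtcgcttgcgtgctggtggtgcta
Rpl27, chr11:101442233-101442259, plus strand: ctctgttcctgtctgctgctcgtgctg
Rps6, chr4:86857353-86857379, minus strand: cggaagtcgggCCTCTTTTTCgtgacg
Rps27, chr3:90213634-90213660, minus strand: tccgctttcgCTCCTTTCCggcggtga
The tract of Rps27l was 5 bases long and that of Rpl34 was 6, and those of Rps6, Rps27 and Rplp2 were 10, 9 and 9 bases long. Genes not called also had short tracts, of 5 bases in Rpl19 and Rpl39 and of 6 in Rps23.

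Motifs were searched as exact letters on both strands from 250 bases before to 50 bases after each start. No motif contains another, although matches can overlap at their ends, and a gene with several starts counted once. The ETS motif CCGGAAG was present in 23 of the 54 genes (42.6%) against 9.93% of all genes, the YY1 motif ATGGCGG in 16.7% against 4.69%, and the SP1 motif GGGCGG in 53.7% against 38.2%. The RUNX motif TGTGGT was present in 4 of 54 (7.41%) against 18.9% of all genes, and its variant TGCGGT in 7.41% against 7.34%. TATAAA was present in 11.1% against 15.7%, and the E-box CACGTG in 7.41% against 8.09%. These shares describe letters in a window and were not tested.

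The upstream 250 bases of 3 of the genes with the largest differences are printed with motif matches in capitals.
Rps27l, chr9:66945836-66946085, plus strand: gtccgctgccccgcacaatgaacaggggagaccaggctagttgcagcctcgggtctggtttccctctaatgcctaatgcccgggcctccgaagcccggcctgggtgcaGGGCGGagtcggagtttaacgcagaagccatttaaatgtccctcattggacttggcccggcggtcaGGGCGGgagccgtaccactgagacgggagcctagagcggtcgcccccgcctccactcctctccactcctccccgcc
Rpl34, chr3:130730399-130730648, minus strand: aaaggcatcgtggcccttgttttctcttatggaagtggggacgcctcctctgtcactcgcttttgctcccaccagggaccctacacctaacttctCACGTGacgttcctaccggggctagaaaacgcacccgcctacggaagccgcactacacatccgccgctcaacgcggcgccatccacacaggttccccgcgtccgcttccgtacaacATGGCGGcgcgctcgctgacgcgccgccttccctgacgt
Rpl5, chr5:107900278-107900527, plus strand: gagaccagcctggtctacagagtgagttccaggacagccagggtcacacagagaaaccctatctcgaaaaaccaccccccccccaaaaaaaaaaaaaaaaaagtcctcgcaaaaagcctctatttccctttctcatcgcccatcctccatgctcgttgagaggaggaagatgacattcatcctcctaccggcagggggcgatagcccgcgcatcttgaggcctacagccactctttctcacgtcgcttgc
Rps27l held GGGCGG 142 and 76 bases before the start. Rpl34 held CACGTG 155 bases and ATGGCGG 39 bases before the start, and Rpl5 held 0 matches in this stretch.

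The first question was whether 2 compounds given at the same dose, AI-8-45 and AI-7-54, left ribosomal protein genes at different levels. A small set was lower after AI-8-45, and no gene was called higher (2.13% of all genes were). Called genes were Rpl30, Rps14, Rps27l, Rpl5 and Rps19bp1, 5 of the 67 (limma, adjusted p under 0.05 over all genes), where 3.53% of all genes were called lower and 5.66% in either direction. The differences were modest, from -0.35 to -0.24 on the log2 scale. The median over the 67 genes was 0.00, as it was over all genes.

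Rpl5, the large-subunit protein that carries 5S ribosomal RNA, read 7.86, 7.88 and 7.83 after AI-7-54 and 7.67, 7.59, 7.54 and 7.64 after AI-8-45. Every AI-8-45 array was below every AI-7-54 array, with a difference of -0.25 (SE 0.06, limma adjusted p = 0.0224). Rps14, a small-subunit protein whose loss is tied to the anaemia of the 5q deletion syndrome, read 7.87, 8.11 and 8.05 after AI-7-54 and 7.69, 7.64, 7.66 and 7.79 after AI-8-45. The groups did not overlap, and the difference was -0.31 (SE 0.07, limma adjusted p = 0.0170). Rps27l, the p53-induced paralog of Rps27, read 9.74, 9.83 and 9.86 against 9.56, 9.41, 9.62 and 9.56. Its groups were also apart, by -0.27 (SE 0.07, limma adjusted p = 0.0337).

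Rpl30, a large-subunit protein, had the largest called difference, -0.35 (SE 0.07, limma adjusted p = 0.00939). Its arrays read 7.04, 7.16 and 7.11 after AI-7-54 and 6.82, 6.68, 6.59 and 6.91 after AI-8-45, with no overlap. That value rests on its only single-symbol probe set. A probe set that lists Rpl30 first among several symbols gave 0.03 (limma adjusted p = 0.831, against a range of 0.00366 to 0.831 over all alternatives tried). Rps19bp1, the Rps19-binding protein, read 9.98, 10.15 and 10.06 against 9.88, 9.89, 9.74 and 9.80, a difference of -0.24 (SE 0.06, limma adjusted p = 0.0442). Its call was lost under 11 of 26 alternatives, 8 of them single arrays left out and 1 quantile normalization (limma adjusted p = 0.0981, against 0.0197 to 0.646 over all of them).

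Groups that did not overlap were lower after AI-8-45 in 11 of the 67 genes and higher in 0, against 9.07% and 6.79% of all genes. Calls in this comparison depended on single arrays. Without AI-7-54 replicate 3 there were 0 calls, without AI-7-54 replicate 4 there was 1, and without AI-8-45 replicate 1, 2, 3 or 4 there were 3, 2, 3 and 3. Both replicate sets gave a negative difference for each of Rpl30, Rps14, Rps27l, Rpl5 and Rps19bp1. Their groups did not overlap, so this sign was fixed in advance and says nothing about stability.

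The second comparison was between AI-9-54 (50 µM) and AI-7-54 (100 µM). Here 14 of the 67 ribosomal protein genes were called lower and 0 higher, where 7.29% of all genes were called lower, 6.87% higher and 14.2% in either direction (limma, adjusted p under 0.05). The called genes were 13.0% to 31.3% lower after AI-9-54. Of large-subunit names 10 of 41 were called, and of small-subunit names 4 of 26. The median over the 67 genes was -0.04 and over all genes -0.00, and the sign was negative for 48 of the 67 and for 11247 of the 22180. Averaged over the 67 genes, the arrays read 10.05 to 10.09 after AI-7-54, 10.01 to 10.08 after AI-8-45 and 9.96 to 10.01 after AI-9-54, so AI-9-54 and AI-7-54 did not overlap.

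Rps27l had the largest difference. It read 9.74, 9.83 and 9.86 after AI-7-54, 9.56, 9.41, 9.62 and 9.56 after AI-8-45, and 9.19, 9.16, 9.33 and 9.40 after AI-9-54. The 3 groups formed separate steps, and AI-9-54 was lower than AI-7-54 by -0.54 (95% interval -0.69 to -0.40, limma adjusted p = 0.000204). It was negative within replicates 1 and 2 (-0.57) and within replicates 3 and 4 (-0.48), and it passed the threshold under each of 26 alternatives. Its sister gene Rps27 read 7.23 ± 0.17 (SD, n = 3) after AI-7-54 and 7.03 ± 0.14 (SD, n = 4) after AI-9-54, which overlapped (-0.20, limma adjusted p = 0.244).

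Both p53-linked 5S partners were among the called genes. Rpl5 read 7.28, 7.43, 7.42 and 7.52 after AI-9-54, all below the AI-8-45 arrays, and differed from AI-7-54 by -0.45 (95% interval -0.57 to -0.33, limma adjusted p = 0.000211). A probe set that lists Rpl5 first among several symbols gave -0.51 for the same comparison, and -0.12 (limma adjusted p = 0.769) for AI-8-45 against AI-7-54, with 0.0105 to 0.769 over its alternatives. Rpl11 read 6.77, 6.91 and 6.65 after AI-7-54 and 6.54, 6.48, 6.56 and 6.52 after AI-9-54. The groups did not overlap, and the difference was -0.25 (SE 0.06, limma adjusted p = 0.0116); AI-8-45 lay between them at 6.61 ± 0.04 (SD, n = 4).

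Rpl26, which binds p53 messenger RNA, was not called (-0.02, 95% interval -0.16 to 0.13). It read 7.91 ± 0.11 (SD, n = 3), 7.83 ± 0.11 (SD, n = 4) and 7.89 ± 0.05 (SD, n = 4) in the order AI-7-54, AI-8-45 and AI-9-54, and the groups overlapped. Rps14 read 7.50, 7.69, 7.64 and 7.53 after AI-9-54, below every AI-7-54 array, a difference of -0.42 (SE 0.07, limma adjusted p = 0.00111). Rps19, the small-subunit protein most often mutated in Diamond-Blackfan anaemia, stayed between 12.14 and 12.36 on all arrays, with a difference of -0.01 (95% interval -0.11 to 0.10).

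Among the acidic stalk proteins, which recruit translation factors to the ribosome, Rplp2 was the one called. It read 7.54, 7.66 and 7.44 after AI-7-54 and 7.25, 7.03, 7.34 and 7.30 after AI-9-54, with no overlap and a difference of -0.32 (SE 0.07, limma adjusted p = 0.0102). Its partner Rplp1 differed by 0.06 (95% interval -0.04 to 0.16), and Rplp0, the base of the stalk, by -0.00 (95% interval -0.17 to 0.16). The probe sets differ in mean signal, 7.37 for Rplp2 against 12.78 for Rplp1 and 11.96 for Rplp0. A second probe set of Rplp0, at a mean of 8.31, gave -0.23, and that of Rplp1, at 7.35, gave 0.10, neither called. Whether the stalk genes differ from one another was not tested.

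Other large-subunit genes were also lower. Rpl34 read 8.36, 8.70 and 8.35 after AI-7-54 against 7.86, 8.05, 8.19 and 7.98 after AI-9-54 (-0.45, SE 0.11, limma adjusted p = 0.0141), without overlap. Rpl27 read 11.89, 11.81 and 11.89 against 11.71, 11.62, 11.54 and 11.56 (-0.26, SE 0.05, limma adjusted p = 0.00351), also without overlap. Rpl27 was the only called gene whose probe set was bright, a property taken up below. Rpl37 differed by -0.32, but 1 AI-9-54 array, at 8.06, lay above the lowest AI-7-54 array, at 8.03. Its difference was -0.18 in replicates 1 and 2 and -0.47 in replicates 3 and 4, and its call was lost under 8 of 26 alternatives, 6 of them single arrays left out (each AI-7-54 array and AI-9-54 replicates 1, 3 and 4).

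The remaining called genes were Rps25, which some viral internal ribosome entry sites need, with -0.26; Rpl30 with -0.25; Rpl17, beside the peptide exit tunnel, with -0.23; Rps19bp1 with -0.23, not called after quantile normalization; Rpl7l1, a paralog of Rpl7 that acts in ribosome assembly, with -0.21; and Rpl37a with -0.20. Rpl7l1 was not called after quantile normalization either, and it lost its call under 8 of 26 alternatives. Rps19bp1 lost its call under 7 of 26, Rpl17 under 6 of 24, Rpl37a under 4 of 26 and Rps25 under 3 of 26. The probe set of Rpl17 had a mean signal of 5.05, below the array medians of 6.61 to 6.68, and could be near background. Rpl30 lost its call under 5 of 25 and changed sign under 1 more. For Rpl30, Rpl34 and Rpl37a the several-symbol probe sets gave 0.05, -0.05 and -0.06, and none of these passed the threshold. For the 14 called genes the difference ran from -0.57 to -0.06 within replicates 1 and 2. Within replicates 3 and 4 it ran from -0.50 to -0.19. All were negative, but the groups of each gene except Rpl37 did not overlap, which fixes that sign in advance. It is therefore no separate support for the calls. The number of calls was 5 without AI-7-54 replicate 3 and 9 without AI-7-54 replicate 4.

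**Figure D1:**
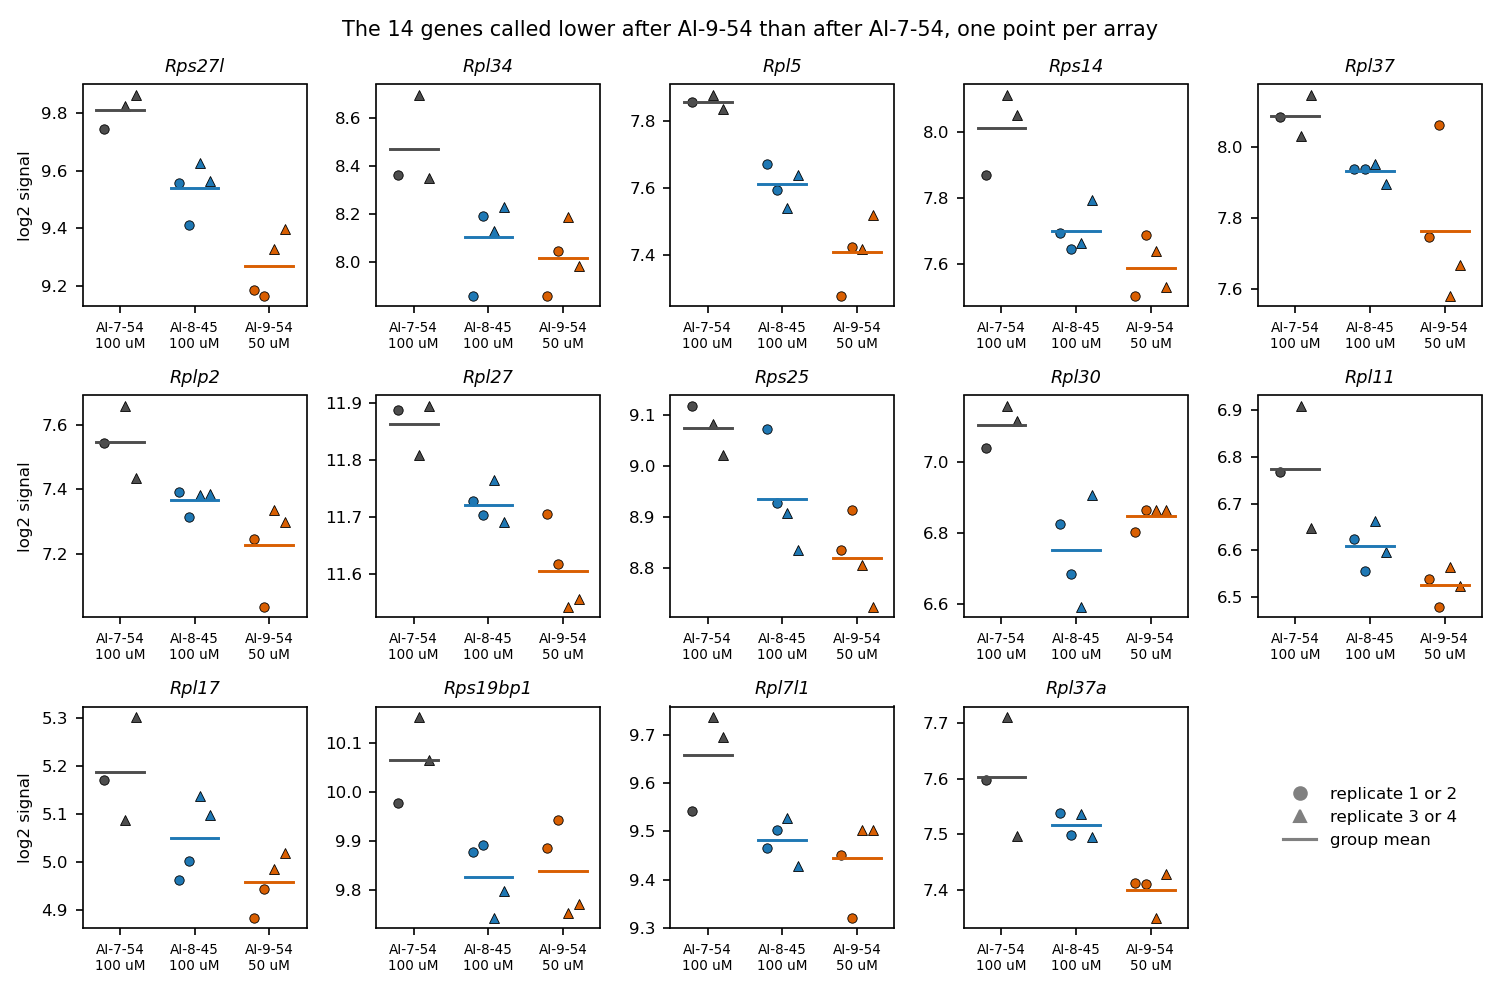
Log2 signal of the 14 genes called between AI-9-54 and AI-7-54, all lower after AI-9-54, 1 panel per gene with its own vertical scale, 1 point per array and a line at each group mean. In 12 of the 14 panels the group means step down from AI-7-54 to AI-8-45 to AI-9-54, and the exceptions are Rpl30 and Rps19bp1. The choice of genes fixes AI-9-54 below AI-7-54, so only the place of AI-8-45 was free. Of all 67 genes, 24 have this order.

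Genes named for their role but not called mostly sat close to 0. Rps6, the S6-kinase substrate, differed by 0.01 (95% interval -0.07 to 0.09). An identical Rps6 value, 13.45, recurred on arrays of all 3 groups, close to the highest value of the data, 13.8. Whether a difference would show at that signal was not tested. Rps4x, the X-linked small-subunit gene, differed by -0.06 (95% interval -0.15 to 0.04). Rpsa, also known as a laminin receptor, differed by 0.02 (-0.12 to 0.16), and Rpl39 by 0.03 (-0.06 to 0.12). Rpl22, needed for development of alpha-beta T cells, differed by -0.08 (95% interval -0.23 to 0.08). Its paralog Rpl22l1 differed by 0.15 (-0.06 to 0.36).

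Rpl39l, a paralog of Rpl39 best known from the testis, read 7.78, 7.89 and 7.85 after AI-7-54 and 8.08, 7.94, 7.91 and 8.10 after AI-9-54. It was the 1 gene of the 67 whose AI-9-54 arrays all lay above the AI-7-54 arrays, against 16 that all lay below, where 11.3% and 12% of all genes did so. Its difference of 0.17 did not pass the threshold (limma adjusted p = 0.145). Rpl3l and Rpl10l, paralogs used in muscle and testis, read 5.77 to 6.08 and 4.65 to 4.76 over all arrays, and neither was called in any comparison. Of the 53 genes not called, 36 had a 95% interval inside 0.2 on either side of 0.

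The third comparison was between AI-9-54 (50 µM) and AI-8-45 (100 µM). No ribosomal protein gene was called among the 67 (limma), where 1.31% of all genes were called in either direction, 0.6% lower and 0.708% higher. At an unadjusted p under 0.05 there were 7 genes, all lower: Rps27l, Rpl5, Rps18, Rpl27, Rpl37a, Rpl32 and Rps24. The smallest adjusted p was that of Rps27l (-0.27, SE 0.06, limma adjusted p = 0.0648), followed by Rpl5 (-0.20, SE 0.05, limma adjusted p = 0.0964). Rps27l was called without AI-9-54 replicate 4, and Rpl37 without AI-9-54 replicate 2, 1 gene each time. With the replicate number as a block Rps27l was called (limma adjusted p = 0.0145), as it was with the replicate set as a factor (limma adjusted p = 0.00516) and among genes above the median signal (limma adjusted p = 0.0376), against 0.00516 to 0.275 over its 26 alternatives. Both Rps27l and Rpl5 had groups that did not overlap, as did 5 genes in all, each of them lower, while 2.84% of all genes were lower without overlap and 3.83% higher.

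The sign was negative for 52 of the 67 genes, with a median of -0.04 against 0.00 over all genes. The most negative value belonged to Rps18, -0.41 (SE 0.15, limma adjusted p = 0.304), named here after its value was seen. It read 8.34, 7.57, 7.62 and 7.64 after AI-8-45 and 7.40, 7.44, 7.36 and 7.35 after AI-9-54, so the first AI-8-45 array carried much of it. The other Rps18 probe sets, at means of 6.87 and 6.82, gave -0.06 and 0.07 and were not called, so the value belongs to 1 probe set. Rpl3, a protein of the peptidyl transferase centre, had the most positive value, 0.16 (95% interval -0.11 to 0.42), with AI-8-45 replicate 3 at 11.62 and all other arrays at 12.16 to 12.32. These comparisons share arrays, so the same AI-7-54 values enter the first 2 and the same AI-8-45 and AI-9-54 values enter the third.

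The calls were not spread evenly over probe set signal. The 67 probe sets left a gap between 10.03 (Rps10) and 11.2 (Rps24), and a line at its midpoint, 10.64, drawn after the data were seen, put 33 genes below and 34 above. Signal is a property of a probe set as well as of its RNA and does not rank genes by abundance. Below the line 5, 13 and 0 genes were called lower in the 3 comparisons, where 3.54%, 6.89% and 0.527% of all genes in the same signal range were. Above it 0, 1 and 0 were, the 1 being Rpl27, where 6.88%, 17.9% and 1.89% of all genes above it were. Median differences were -0.09, -0.15 and -0.05 below the line, and 0.03, -0.00 and -0.04 above it.

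**Figure D2:**
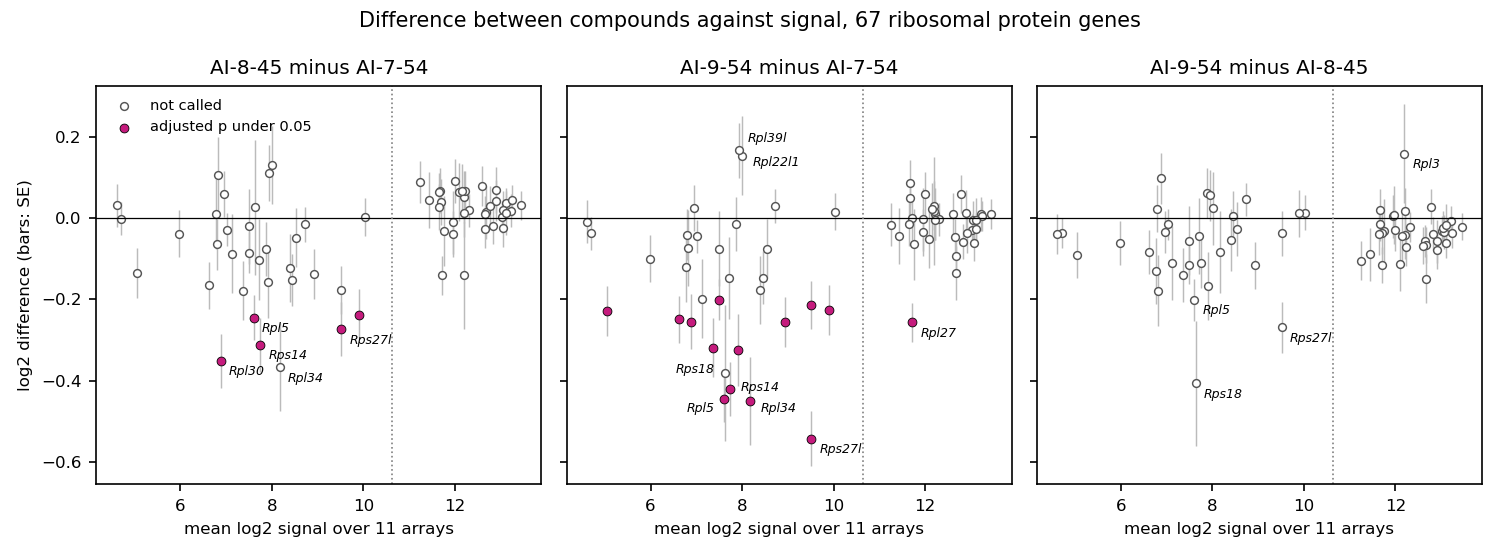
Log2 difference of each of the 67 genes (vertical axis, bars are standard errors) against its mean log2 signal over 11 arrays (horizontal axis), 1 panel per comparison, with filled points for adjusted p under 0.05 and a dotted line at 10.64. All filled points except Rpl27 lie left of the line, and the third panel has none.

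Bright genes were measured with narrow error. For AI-9-54 against AI-7-54, 28 of the 34 had a 95% interval inside 0.2 on either side of 0, and for each of the other comparisons 27 had. Across the 67 genes, signal and difference had a Spearman rho of 0.38, 0.44 and 0.19 in the 3 comparisons, against -0.08, -0.04 and 0.05 across all 22180 genes. The points share arrays and normalization, and the values are a description.

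Averaged over the 33 dim genes, the arrays read 7.66, 7.72 and 7.65 after AI-7-54, 7.60, 7.57, 7.59 and 7.58 after AI-8-45, and 7.51, 7.53, 7.51 and 7.51 after AI-9-54. The 3 groups followed each other without overlap, with means of 7.68 ± 0.04 (SD, n = 3), 7.59 ± 0.02 (SD, n = 4) and 7.52 ± 0.01 (SD, n = 4). Averaged over the 34 bright genes, they read 12.39 ± 0.04 (SD, n = 3), 12.41 ± 0.05 (SD, n = 4) and 12.38 ± 0.05 (SD, n = 4). There the groups overlapped, and in each group replicates 3 and 4 lay below replicates 1 and 2.

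**Figure D3:**
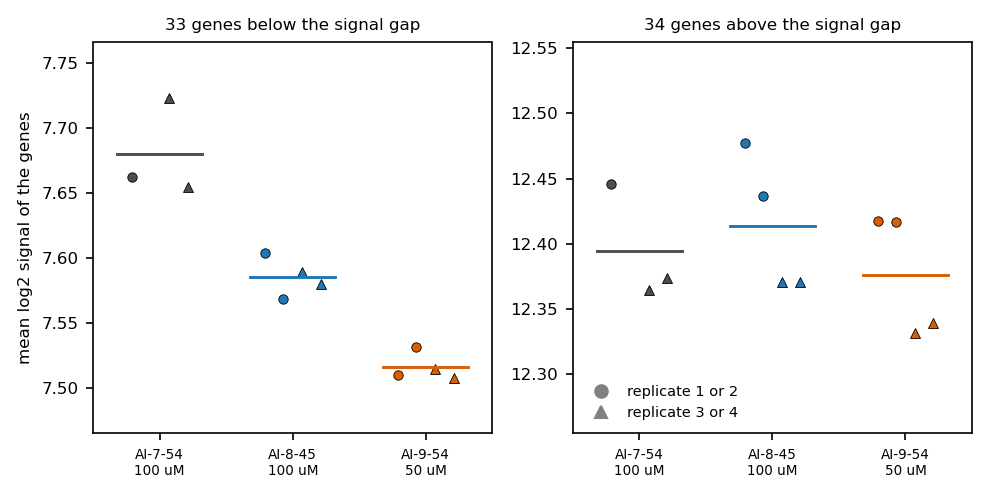
Mean log2 signal per array of the 33 genes below 10.64 (left) and the 34 genes above it (right), on vertical scales of equal length, with a line at each group mean. Left, the arrays separate by compound, from 7.65 to 7.72 after AI-7-54 down to 7.51 to 7.53 after AI-9-54. Right, the groups overlap and circles (replicates 1 and 2) lie above triangles (replicates 3 and 4).

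The same contrast appeared within genes. The 67 genes had 108 single-symbol probe sets, 25 genes having several, and 21 genes had at least 1 on each side of 10.64. In a fit over all 41345 probe sets, in which 1.55%, 4.26% and 0.14% were called lower in the 3 comparisons, the dimmest probe set of these 21 genes was called lower in 4, 9 and 0 and the brightest in 0, 1 and 0. The dim one was the more negative of the pair in 16, 18 and 15 of 21. For AI-9-54 against AI-7-54 the median was -0.23 over the dim and -0.00 over the bright probe sets.

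Rpl35 showed the widest gap together with Rpl29, both of the large subunit. The dimmest probe set of Rpl35 read 7.23, 7.20 and 7.36 after AI-7-54, 6.74, 6.56, 6.79 and 6.82 after AI-8-45, and 6.45, 6.35, 6.69 and 6.59 after AI-9-54. Between AI-9-54 and AI-7-54 it differed by -0.75 (SE 0.09, limma adjusted p = 0.000557), while the bright probe set of Rpl35 differed by -0.04 (SE 0.05). Another Rpl35 probe set below the line, at a mean of 7.49, differed by only -0.07 (limma adjusted p = 0.628), so the gap was not shared by every dim probe set of this gene. The dim probe set of Rpl29 read 7.52, 7.44 and 7.83 after AI-7-54 and 6.59, 6.64, 7.08 and 7.08 after AI-9-54 (-0.75, SE 0.15, limma adjusted p = 0.00974), and the bright one differed by -0.06 (SE 0.05).

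Rps19 repeated this on a smaller scale, with a dim probe set at -0.24 (limma adjusted p = 0.0381) and a bright one at -0.01. Rpl27 was the exception, since its dim (-0.34) and bright (-0.26) probe sets were both called. A pattern by signal alone did not cover every probe set. Rpl3 had a middle one, just above the line at a mean of 10.66, that was lower by -0.54 (SE 0.09, limma adjusted p = 0.00403) while its dimmest differed by 0.18. Rps20, a small-subunit gene, had a pair of equally dim probe sets, of which the one used here differed by -0.05 and the other by -0.72 (SE 0.12, limma adjusted p = 0.00383).

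**Figure D4:**
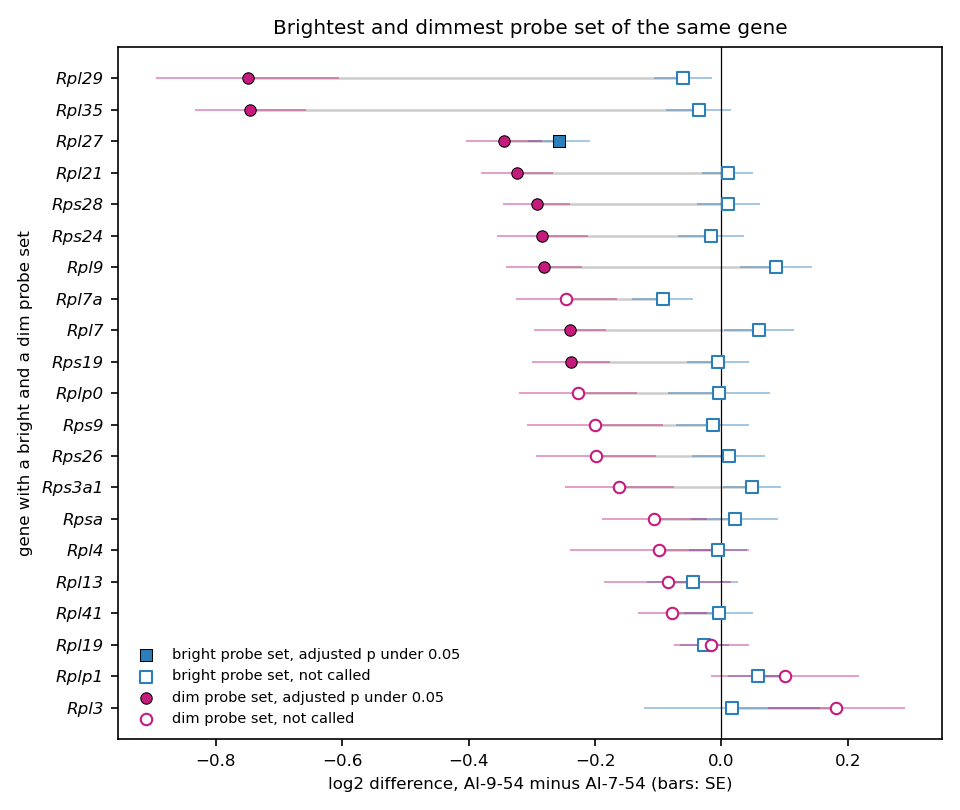
Log2 difference between AI-9-54 and AI-7-54 (horizontal axis, bars are standard errors) for the dimmest (circles) and brightest (squares) probe set of each of 21 genes (vertical axis), filled where adjusted p is under 0.05. Bright probe sets sit near 0 except that of Rpl27, and 9 of the dim ones are filled, the lowest being Rpl29 and Rpl35 at -0.75.

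Probe sets with several symbols were outside the gene counts. Of 57 such probe sets with a ribosomal protein name, 2, 11 and 0 of the 36 below 10.64 were called lower in the 3 comparisons, and 0, 0 and 0 of the 21 above it. Among 182 other genes with a bright and a dim probe set, the dim ones were called lower in 2.20%, 11.5% and 1.10% and the bright ones in 4.40%, 17.0% and 0%. The dim one was the more negative in 98, 116 and 126 of the 182. Ribosomal protein genes have many near-identical processed copies in the genome, so which RNA each probe set reads is uncertain for single genes, and 3 genes (Rpl23a, Rps12 and Rps19) had probe sets with identical values on every array. The part of such copies, of probe position and of signal range in these differences was not tested.

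Genes that share a function with the ribosomal proteins gave the following counts. Of 18 measured TOP genes outside the 67, mostly elongation and initiation factors, 1, 2 and 0 were called lower and 0 higher, shares of 5.56%, 11.1% and 0% where 3.53%, 7.29% and 0.6% of all genes were called lower. Eef1d, a subunit of the elongation factor 1 exchange complex, was lower by -0.27 after AI-8-45 (limma adjusted p = 0.0139) and -0.23 after AI-9-54 (limma adjusted p = 0.0141), both against AI-7-54. Eif3l, of initiation factor 3, was lower by -0.16 after AI-9-54 (limma adjusted p = 0.0215). Fau, which encodes ribosomal protein S30 as a fusion, read 13.05 ± 0.03 (SD, n = 3), 13.03 ± 0.05 (SD, n = 4) and 12.99 ± 0.01 (SD, n = 4) and was not called.

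Chaperones and assembly factors fold, carry and insert the ribosomal proteins. Of 11 measured, 7, 7 and 1 were called lower and 0 higher, with medians of -0.28, -0.31 and -0.03. These are shares of 63.6%, 63.6% and 9.09%, where 3.53%, 7.29% and 0.6% of all genes were called lower. Bop1, needed to process large-subunit ribosomal RNA, read 9.94, 9.88 and 10.00 after AI-7-54, 9.49, 9.46, 9.40 and 9.46 after AI-8-45, and 9.21, 9.29, 9.27 and 9.30 after AI-9-54. Its 3 groups were apart, at -0.49 (limma adjusted p = 6.65e-05) and -0.67 (limma adjusted p = 1.78e-06) against AI-7-54, and at -0.19 (limma adjusted p = 0.0429) between AI-9-54 and AI-8-45.

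Rrs1, which helps to place the 5S particle that holds Rpl5 and Rpl11, was lower by -0.47 after AI-8-45 (limma adjusted p = 0.00682) and -0.70 after AI-9-54 (limma adjusted p = 0.000174). Grwd1, a chaperone of Rpl3, was lower by -0.53 (limma adjusted p = 0.000367) and -0.64 (limma adjusted p = 3.03e-05). Ltv1, a small-subunit export factor, was lower by -0.40 (limma adjusted p = 0.00819) and -0.54 (limma adjusted p = 0.000473). The 71 mitochondrial ribosomal protein genes, which serve a separate ribosome, had 19, 41 and 2 called lower and 0 higher, with medians of -0.15, -0.22 and -0.06. Their shares called lower were 26.8%, 57.7% and 2.82%, against 3.53%, 7.29% and 0.6% of all genes. Differences between these lists and the cytosolic genes were not tested.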

How the data were processed

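Total RNA was isolated with RNeasy, amplified (Ambion WT Expression kit) and biotin-labelled, per the labels' protocols. The deposited table holds log2 signal for 41345 probe sets, made by the authors with RMA, which brings arrays to a common distribution, and Partek 6.6, per the submitters' processing notes. The log2 scale was read from the range of the values. The genome build behind them is not given in the sources used here.

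The 23521 probe sets with a single symbol were named, leaving 1814 with several and 16010 with none in the platform annotation, with 23328 found by Entrez identifier in a RefSeq gene table. Each gene was read from its brightest such probe set (mean over 11 arrays), with no filter. All 3 contrasts came from 1 limma 3.58.1 model in R 4.3.3 (8 residual degrees of freedom, prior 4.14), two-sided, with Benjamini-Hochberg adjustment over 22180 genes and calls at an adjusted p under 0.05. The model was first tested on simulated data. Figures used matplotlib 3.10.9.

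Members and lists were chosen with earlier results of these data known. Genes were named if called with groups apart (the 6 largest per comparison and direction) or by role; Rpl37, Rps25, Rpl17, Rpl37a, Rpl32, Rps24, Rps18 and the second probe sets were named after their values were seen. Alternatives covered scaling, signal filters, choice of probe set, the prior, array weights, the replicate number, replicate sets and each array left out. Counting error does not apply to arrays, and their number limits the precision.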

Additional observations from a re-analysis of the deposited data

Results flagged for a closer look

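Each group of 4 arrays was examined for 1 array far from the rest, in 134 groups (67 genes after AI-8-45 and after AI-9-54). The gap to the nearest array exceeded the critical share of the range in 9 groups (6.72%), where chance gives about 1 in 20.

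After AI-8-45 the arrays standing off were replicate 2 for Rplp2 (7.31, others 7.38 to 7.39), replicate 1 for Rps18 (8.34, others 7.57 to 7.64), replicate 3 for Rps3 (12.1, others 12.22 to 12.23) and replicate 1 for Rps3a1 (11.8, others 11.65 to 11.66). After AI-9-54 they were replicate 1 for Rpl30 (6.80), replicate 3 for Rpl38 (12.6, others at 12.64), replicate 4 for Rpl3l (5.77, others 5.97 to 5.99), replicate 3 for Rps26 (12.8, others 12.90 to 12.91) and replicate 4 for Rps6 (13.4). For Rpl30 and Rps6 the other 3 arrays hold identical values, 6.86 and 13.45, so a small gap was enough. The gap was widest for Rps18, the gene with the most negative value between AI-9-54 and AI-8-45. Of the 14 genes called between AI-9-54 and AI-7-54, Rpl30 and Rplp2 are on this list.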

How the results depend on the processing

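The calls depend on few arrays and on the probe set taken. For AI-8-45 against AI-7-54 (5 calls) leaving out single arrays gave 0 to 5 calls, and for AI-9-54 against AI-7-54 (14 calls) 5 to 15, lowest for both without AI-7-54 replicate 3. For AI-9-54 against AI-8-45 (0 calls) it gave 0 to 1, the 1 being Rpl37 without AI-9-54 replicate 2 and Rps27l without replicate 4. The medians ranged over single arrays left out from -0.02 to 0.02, from -0.06 to -0.02 and from -0.06 to -0.03. Replicates 1 and 2 alone gave 0 and 1 calls in the first 2 comparisons, but they hold 1 AI-7-54 array, so these counts say nothing about stability. Replicates 3 and 4 alone, with 2 arrays a group, gave 1 and 8. The mean over probe sets gave 8 in the first. The lowest-mean probe set gave 12 and 23, with medians of -0.065 and -0.12. Every probe set in 1 fit gave 8 and 22 (of 108), the genes above the signal gap gave 0 and 1, and the genes below it had medians of -0.085 and -0.15; these were added after seeing the data. Between AI-9-54 and AI-8-45, genes above the median signal gave 1 call. Rpl30 changed sign under its several-symbol probe set, to 0.026 (AI-8-45) and 0.048 (AI-9-54) against AI-7-54. The cause was not tested. Without Rps19bp1 and Rps23rg1 the counts were 4, 13 and 0.

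Replicate numbers were not taken to pair arrays: deviations of same-numbered arrays correlated from -0.02 to 0.45 in 10 pairs, others from -0.48 to 0.49, and 3 of 11 arrays correlated best with their own number. The replicate block gave 6, 14 and 1 calls, and a factor for replicate sets 6, 14 and 1, the 1 being Rps27l. In 2241 checks of 29 named genes, 2138 kept their side of the threshold, 87 lost a call, 14 gained one and 2 reversed. Direction was compared only where a gene was called in at least 1 of the fits. The 2138 include genes called in neither fit, whose sign could change. Probe sets near background were not separated, so small differences in dim genes are the least certain.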
